A study of Mus musculus with 8 samples.

Results

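The miR-378 family comprised the 5 mature miRs of the count table whose names begin with miR-378, namely mmu-miR-378a-3p, mmu-miR-378a-5p, mmu-miR-378b, mmu-miR-378c and mmu-miR-378d (the species prefix is left out from here on), out of 1755 miRs in all. Membership follows from the name alone and uses no measured value. Extracellular vesicles (EVs), the membrane particles that cells release, were collected from muscle of male C57BL/6J mice bought at 10 to 12 weeks of age, which carried no transgene or other treatment that the labels name. The OXI-EV group came from oxidative muscle (soleus with the red part of the gastrocnemius) and the GLY-EV group from glycolytic muscle (whole quadriceps), teased apart and kept for 24 h in serum-free medium, with 4 libraries in each group, 1 per preparation of a single leg. Such preparations may hold vesicles of any cell type in the explant. The authors considered most vesicles likely to come from muscle fibres, because fibres dominate the tissue and the most enriched miRs were muscle-specific. Vesicles from fewer cells of a type and less RNA in each vesicle cannot be told apart. The sources used here do not say whether libraries with the same replicate number came from the same mouse. The authors compared EV release between the muscle types with paired tests, so the libraries may be paired by mouse. The main tests here are unpaired, and their p-values measure the spread between these preparations.

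A miR is a short RNA that guides a silencing complex to mRNAs, mainly by pairing of its seed, the bases near its 5′ end. One hairpin precursor can give a mature miR from each of its arms, and one arm usually remains in far larger amount than the other. miR-378a is transcribed together with its host gene Ppargc1b, which encodes PGC-1 beta, a coactivator of genes for mitochondria and lipid metabolism. In mouse tissues miR-378a-3p has been shown to repress the carnitine acetyltransferase mRNA Crat, and in mouse myoblasts it favours differentiation by repressing the inhibitor MyoR. In human tumour cells the family has been described as promoting vessel growth, and miR-378a-5p as repressing the metabolic regulators ESRRG and GABPA.

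The mature sequences of miR-378b, miR-378c and miR-378d are close, which bears on how well their reads can be told apart. Sequences for 3 of the 5 members were matched in RefSeq (GRCm38.p6), and they are shown 5′ to 3′ with the seed, bases 2 to 8, in capitals, because the seeds differ while the rest hardly does.
miR-378b: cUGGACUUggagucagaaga
miR-378c: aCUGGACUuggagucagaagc
miR-378d: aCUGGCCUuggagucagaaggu
miR-378b (20 bases, chr11:88352839-88352858, plus strand) began 1 base further in than miR-378c (21 bases, chr14:46954905-46954925, minus strand), and they shared a run of 19 bases. The seed of miR-378b is therefore that of miR-378c shifted by 1 base, and the only base that differed within the aligned stretch was the last of miR-378b, A20C, counted from the 5′ end of miR-378b. miR-378d (22 bases, chr10:126710355-126710376, minus strand) differed from miR-378c at 2 positions, A6C and C21G, counted from the 5′ end of both. The first of these lies inside the seed. A run of 14 bases was common to the 3 members. miR-378a-3p and miR-378a-5p had no matched sequence, so whether their reads can be told apart from those of the other 3 was not examined. Reads cut short at an end may fit more than one member, and how the counting assigned them is not given in the sources used here, so counts of single members are less certain than their sum.

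The hairpins lie on different chromosomes of the mouse genome (GRCm38, GENCODE release M21). Mir378b (chr11:88352773-88352864) lies in an intron of Msi2, which encodes an RNA-binding protein, on the strand opposite to that gene. Mir378c (chr14:46954830-46954928) lies in an intron of Samd4, which also encodes an RNA-binding protein, again on the opposite strand. Mir378d (chr10:126710282-126710391) is intergenic.

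Mir378a (chr18:61397835-61397900, minus strand) lies in an intron of Ppargc1b on the same strand as that gene. A predicted miRNA gene, Gm25301, is annotated on the other strand across this hairpin. The host gene's mRNA was not measured in these libraries.

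Depth differed between the groups. Mapped reads numbered 4151145 to 4867396 in OXI-EV libraries and 5179262 to 7197716 in GLY-EV libraries, and the summed miR counts were 348730 to 572106 in OXI-EV libraries and 587068 to 1004011 in GLY-EV. Levels are given as counts per 1000000 mapped reads (CPM). There were 3.14 to 4.69 miR reads for each count in OXI-EV libraries and 2.63 to 4.94 in GLY-EV libraries, so the table appears to count molecules while mapped reads count reads. GLY-EV replicate 4 was the lowest in this respect and had the most miR counts per 1000000 mapped reads, 193852, against 102836 to 116877 in the other GLY-EV libraries and 74662 to 117538 in OXI-EV libraries. The miRs of striated muscle were abundant in both groups as a sum, with a summed level of 52255 to 84674 CPM in OXI-EV libraries and 65949 to 124593 CPM in GLY-EV libraries over the 8 of the muscle list. Most of this sum was miR-1a-3p and miR-206-3p. Others were scarce, with means of 11.5 CPM in OXI-EVs and 3.86 CPM in GLY-EVs for miR-208b-3p. Those of miR-499-5p were 3.82 CPM in OXI-EVs and 0.836 CPM in GLY-EVs. Shares and ratios within a library do not depend on this scale and are given beside the CPM.

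The family was less abundant in OXI-EVs than in GLY-EVs, and most of it was a single member. The summed CPM of the 5 members was 884, 961, 830 and 1193 in OXI-EV replicates 1 to 4, against 2202, 2943, 2167 and 4404 in GLY-EV replicates 1 to 4. Groups did not overlap, and the lowest GLY-EV library had more than the highest OXI-EV library. The mean was 967 ± 160 CPM in OXI-EVs and 2929 ± 1046 CPM in GLY-EVs (SD, n = 4 each), 3.03 times higher in GLY-EVs, with p = 0.0286 in a two-sided exact permutation test (adjusted p = 0.0643 over the 9 comparisons of sums, shares and ratios). With 4 libraries against 4, 0.0286 is the smallest p that the exact test can give, and after adjustment none of the 9 was under 0.05. miR-378a-3p held 78.3 to 83.6% of the family's counts in OXI-EV libraries and 81.9 to 87.4% in GLY-EV libraries.

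miR-378a-3p, the abundant arm of the Ppargc1b hairpin, was the only member among the leading miRs of the vesicles. It ranked 6 or 7 by count in every OXI-EV library and 6 to 8 in every GLY-EV library. Its level was 692, 803, 681 and 961 CPM in OXI-EV replicates 1 to 4 (counts of 3008, 3335, 3180 and 4677), against 1855, 2411, 1789 and 3847 CPM in GLY-EV replicates 1 to 4 (counts of 12836, 17353, 10215 and 19927). The GLY-EV libraries were all higher than the OXI-EV libraries, and replicate 4 was the highest in both groups by CPM and by count. That rank did not hold for the share of miR counts. There OXI-EV replicate 4 was the lowest of its group (0.818%), and GLY-EV replicate 4 (1.98%) was below GLY-EV replicate 2 (2.23%). The mean was 784 ± 130.2 CPM in OXI-EVs and 2476 ± 956 CPM in GLY-EVs (SD, n = 4 each). In the edgeR fit over all 1569 miRs tested, miR-378a-3p had a log2 fold change of -1.66 in OXI-EVs (standard error, SE, 0.30, Benjamini-Hochberg adjusted p = 0.0131). Leaving out GLY-EV replicate 4 gave -1.36 (edgeR adjusted p = 0.00552). Leaving out GLY-EV replicate 2 gave -1.67 with an edgeR adjusted p of 0.0520, just short of the threshold of 0.05.

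miR-378b was also lower in OXI-EVs, at a level far below that of miR-378a-3p. OXI-EV replicates 1 to 4 held 68.1, 61.7, 62.3 and 68.2 CPM (counts of 296, 256, 291 and 332), against 157, 250.4, 178 and 228 CPM in GLY-EV replicates 1 to 4 (counts of 1088, 1802, 1017 and 1182). The OXI-EV libraries lay within a narrow range, and the groups did not overlap. miR-378b averaged 65.1 ± 3.56 CPM in OXI-EVs and 203 ± 43.2 CPM in GLY-EVs (SD, n = 4 each), with a log2 fold change of -1.64 (SE 0.37, edgeR adjusted p = 0.0441). This call was close to the threshold. It was past it in 1 of the 8 fits that left out a library, the one without GLY-EV replicate 4 (edgeR adjusted p = 0.0224), and the highest adjusted p, 0.146, was that without GLY-EV replicate 2. The names of the libraries in the count table carry a number that is not the replicate number (1, 3, 4 and 5 for OXI-EV libraries, against 1, 2, 4 and 5 for GLY-EV libraries), and a fit with it as a block gave -1.49 (edgeR adjusted p = 0.140).

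miR-378c, the close sequence neighbour of miR-378b, was likewise lower in each OXI-EV library than in any GLY-EV library but did not pass the test. Its level was 75.9, 74.2, 65.7 and 76.2 CPM in OXI-EV replicates 1 to 4 (counts of 330, 308, 307 and 371), against 146, 213, 153 and 233 CPM in GLY-EV replicates 1 to 4 (counts of 1008, 1530, 872 and 1209). The OXI-EV libraries again lay close together. The mean was 73.0 ± 4.93 CPM in OXI-EVs and 186 ± 43.6 CPM in GLY-EVs (SD, n = 4 each), giving a log2 fold change of -1.35 (SE 0.37, edgeR adjusted p = 0.120). The call depended on the scale and the tool, since miR-378c passed the threshold with TMM scaling, which takes most miRs as equal (-1.86, edgeR adjusted p = 0.0240), and with DESeq2 on the mapped-read scale (-1.35, DESeq2 adjusted p = 9.95e-05).

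**Figure D1:**
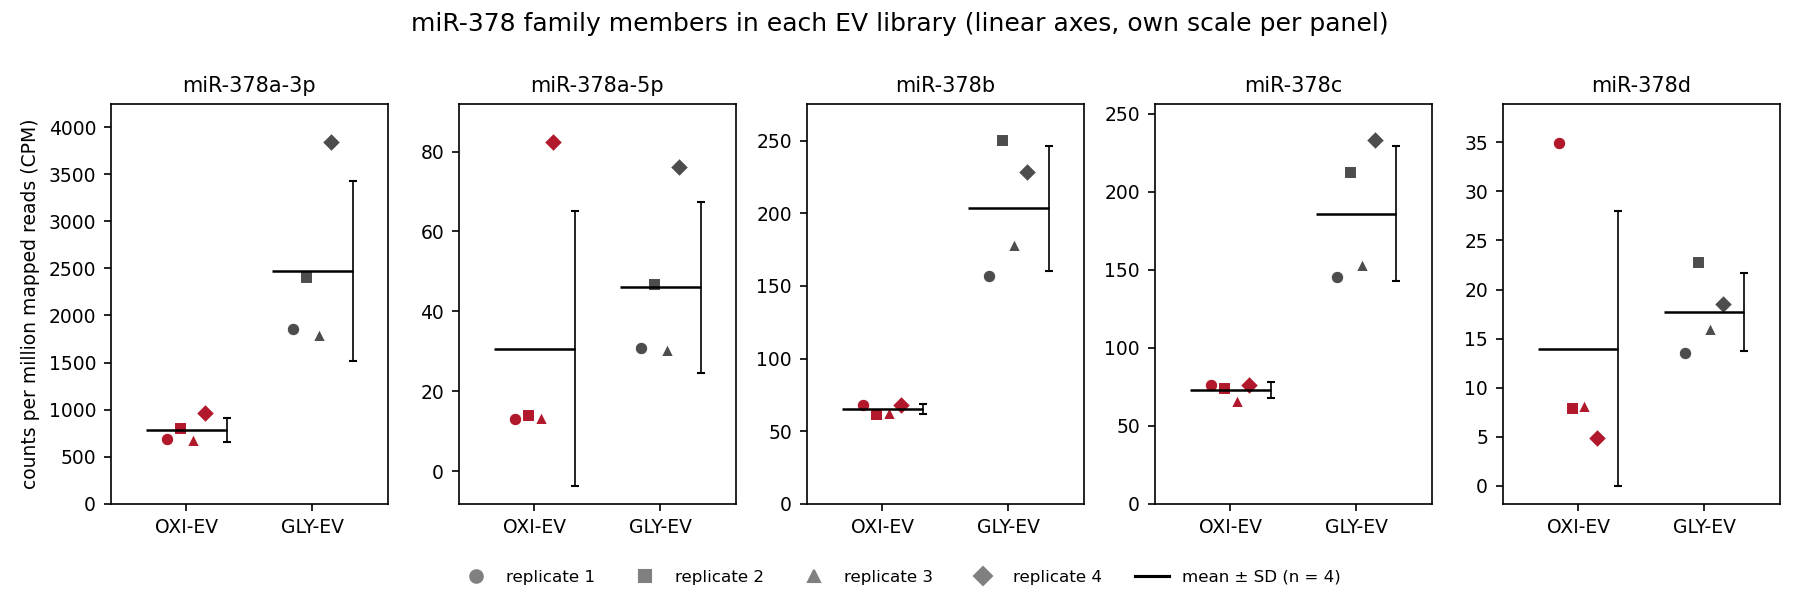
Levels of the 5 members in counts per 1000000 mapped reads, with a linear axis of its own for each member, OXI-EV libraries (red) left of GLY-EV libraries (grey); points are libraries, marked by replicate, and lines are the mean ± SD (n = 4 each). The groups are apart for miR-378a-3p, miR-378b and miR-378c, while OXI-EV replicate 4 stands high for miR-378a-5p (82.4 CPM) and OXI-EV replicate 1 for miR-378d (34.9 CPM).

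miR-378a-5p, the scarce arm of the same hairpin as miR-378a-3p, did not differ past the threshold, and 1 library held most of its OXI-EV counts. OXI-EV replicates 1 to 4 had 13.1, 14.0, 13.3 and 82.4 CPM (counts of 57, 58, 62 and 401), against 30.9, 46.8, 30.3 and 76.1 CPM in GLY-EV replicates 1 to 4 (counts of 214, 337, 173 and 394). OXI-EV replicate 4 was thus above every other library, while the other 3 OXI-EV libraries were below all GLY-EV libraries. The exact 95% Poisson interval of its 401 counts was 363 to 442, which covers counting error only, so counting error does not span the distance to the other OXI-EV libraries. On the log2 scale the fold change was -0.58 (SE 0.67, edgeR adjusted p = 0.708). It became -1.77 when OXI-EV replicate 4 was left out (edgeR adjusted p = 0.130), and -2.10 when that library was left out and TMM scaling used (edgeR adjusted p = 0.0291), an alternative chosen after the data were seen.

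miR-378d, which carries the changed seed, was the least abundant member in GLY-EVs and in 3 of the 4 OXI-EV libraries. OXI-EV replicates 1 to 4 had 34.9, 7.95, 8.14 and 4.93 CPM (counts of 152, 33, 38 and 24), against 13.6, 22.8, 15.9 and 18.5 CPM in GLY-EV replicates 1 to 4 (counts of 94, 164, 91 and 96). The pattern resembled that of miR-378a-5p but in another library, with OXI-EV replicate 1 above all others and the remaining OXI-EV libraries below all GLY-EV libraries. The interval of its 152 counts was 129 to 178 (exact 95% Poisson). Its log2 fold change was -0.34 (SE 0.62, edgeR adjusted p = 0.806), and the direction was not stable, with 0.16 (edgeR adjusted p = 0.836) on the scale of total miR counts. Leaving out OXI-EV replicate 1 gave -1.34 (edgeR adjusted p = 0.231).

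Single libraries far above the rest were not a feature of these members alone. Of the 1569 miRs tested, 52 had an isolated high value in OXI-EV replicate 4, at least 3 times the next library of the group, and 12 had one in OXI-EV replicate 1. The numbers were 68 and 7 in the other OXI-EV libraries, replicates 2 and 3, and 5, 0, 11 and 71 in GLY-EV replicates 1 to 4.

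Counted over the family, 2 of 5 members were lower in OXI-EVs past the threshold and 0 were higher, against 1.78% of the 1569 miRs tested that were lower and 0.0637% that were higher. Members close in sequence, such as miR-378b and miR-378c, may share reads, so the members counted here need not be separate signals. The background depends strongly on abundance. Among the 129 miRs with a mean count of at least 100, which include 4 members but not miR-378d, 21.7% were lower past the threshold. The groups did not overlap, with OXI-EVs lower, for 3 of 5 members, against 4.53% of all miRs tested and 44.2% of the 129 abundant ones. Among abundant miRs, being lower in OXI-EVs was therefore common, and 37 of the 129 had a lower log2 fold change than miR-378a-3p, 39 a lower one than miR-378b, 58 than miR-378c and 77 than miR-378a-5p.

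The size of each difference moved with the scale, as did the median of all miRs. Over all 1569 miRs the median log2 fold change came to 0.48 on the mapped-read scale, 0.09 with TMM scaling and 0.98 when scaled to total miR counts. Relative to that median, miR-378a-3p was at -2.14, -2.21 and -2.13 on these scales, and miR-378b at -2.13, -2.28 and -2.18. Leaving out GLY-EV replicate 4 brought the median of the abundant miRs to -0.70 on the mapped-read scale. Relative to the median of the 129 abundant miRs, which was -1.12, -1.63 and -0.72, miR-378a-3p was at -0.53, -0.49 and -0.43 and miR-378c at -0.23, -0.24 and -0.16. miR-378a-5p and miR-378d lay above the abundant miRs' median on each of the 3 scales, at 0.54 and 0.78 on the mapped-read scale. The number of members lower past the threshold was 2 on the mapped-read scale, 3 with TMM scaling (5.42% of all miRs, 51.2% of abundant ones) and 3 when scaled to total miR counts (3.06% of all miRs, 34.9% of abundant ones). No member was higher on any of them, against 12% of all miRs on the scale of total miR counts. With 5 members, 0 cannot be told apart from that share. The share of abundant miRs that were higher is not given here.

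**Figure D2:**
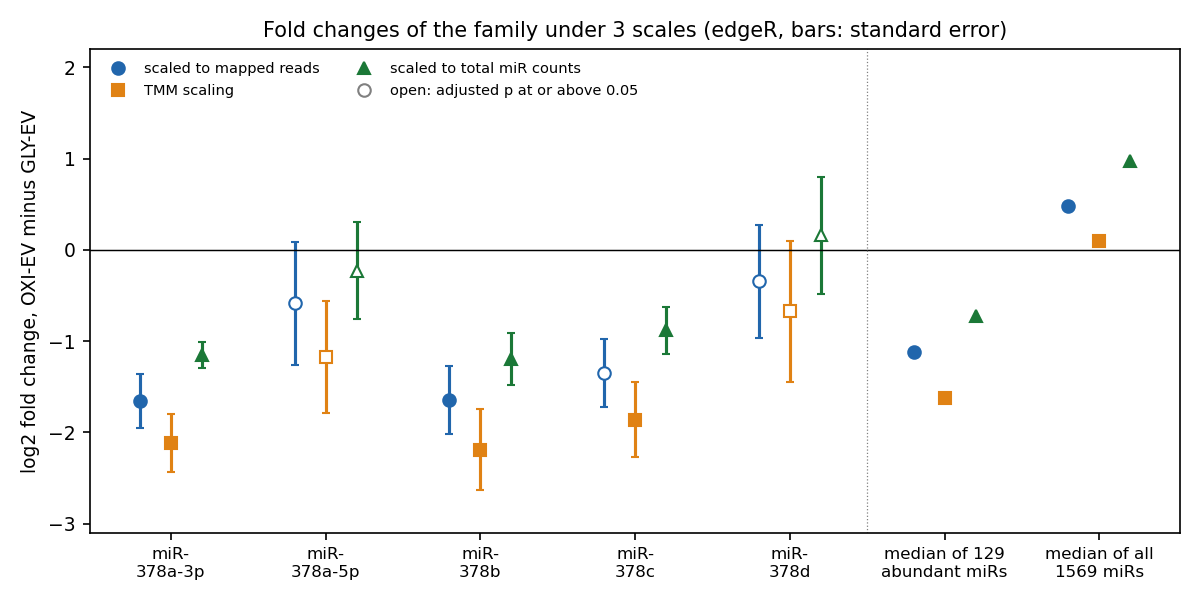
Log2 fold changes (OXI-EV minus GLY-EV) of the 5 members from edgeR under 3 scales, with SEs, beside the medians of the 129 abundant miRs and of all 1569 miRs tested; filled symbols have an adjusted p under 0.05. miR-378a-3p and miR-378b are past the threshold on each scale, miR-378c with TMM scaling and total miR counts, and miR-378d changes side with total miR counts (0.16).

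Within each library, the family took a smaller share of the miR counts in OXI-EVs. The share was 1.05, 1.00, 1.11 and 1.01% in OXI-EV replicates 1 to 4, against 1.88, 2.73, 2.11 and 2.27% in GLY-EV replicates 1 to 4, with no overlap. Means were 1.05 ± 0.0486% in OXI-EVs and 2.25 ± 0.357% in GLY-EVs (SD, n = 4 each), with p = 0.0286 in the exact permutation test (adjusted p = 0.0643). This share is free of the number of mapped reads, but it shifts with the muscle miRs that make up most of the counts, miR-1a-3p, lower in OXI-EVs (log2 fold change -1.69, edgeR adjusted p = 2.61e-04), and miR-206-3p, higher in OXI-EVs (log2 fold change 2.58, edgeR adjusted p = 1.93e-05). With this pair taken out of the total, the share was 3.58, 3.03, 3.56 and 3.53% in OXI-EV replicates 1 to 4, against 4.88, 6.86, 5.42 and 5.26% in GLY-EV replicates 1 to 4. The groups were still apart, at 3.42 ± 0.265% in OXI-EVs and 5.60 ± 0.869% in GLY-EVs (SD, n = 4 each, exact permutation test, p = 0.0286, adjusted p = 0.0643), 1.64 times higher in GLY-EVs in place of 2.15 times.

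Set against single muscle miRs, miR-378a-3p gave different pictures. miR-1a-3p is the leading miR of striated muscle, and per 100 of its counts there were 3.42, 3.35, 3.43 and 4.13 counts of miR-378a-3p in OXI-EV replicates 1 to 4, against 2.87, 4.09, 3.21 and 3.79 in GLY-EV replicates 1 to 4. The groups overlapped, with means of 3.58 ± 0.365 in OXI-EVs and 3.49 ± 0.551 in GLY-EVs (SD, n = 4 each, exact permutation test, p = 0.771, adjusted p = 0.857). miR-133a-3p, a muscle miR transcribed together with miR-1a, had a log2 fold change of -3.06 (edgeR adjusted p = 0.0163). Per 100 counts of miR-133a-3p there were 161 ± 44.6 counts of miR-378a-3p in OXI-EVs and 84.8 ± 33.8 in GLY-EVs (SD, n = 4 each, exact permutation test, p = 0.0286, adjusted p = 0.0643). The lowest OXI-EV library had 124 and the highest GLY-EV library 108, and GLY-EV replicate 4, at 34.6, was far below the other GLY-EV libraries, at 96.2 to 108. A ratio of this kind shows unequal change only, and the log2 fold changes on the mapped-read scale were -1.66 for miR-378a-3p, -1.69 for miR-1a-3p and -3.06 for miR-133a-3p.

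**Figure D3:**
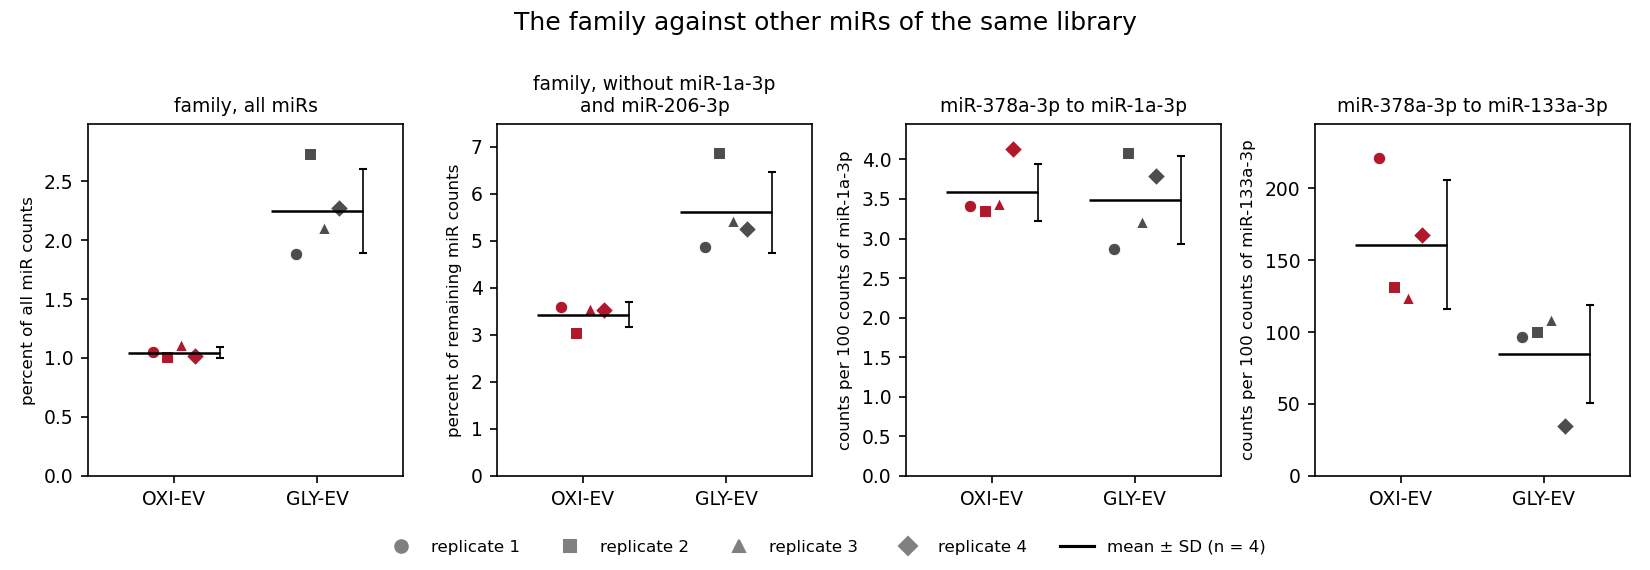
The family as a percent of all miR counts and of the counts left without miR-206-3p and miR-1a-3p, and miR-378a-3p per 100 counts of miR-1a-3p and of miR-133a-3p, OXI-EV libraries left of GLY-EV libraries; points are libraries, lines are the mean ± SD (n = 4 each). The shares are lower in every OXI-EV library than in any GLY-EV library (highest 1.11% in OXI-EV, lowest 1.88% in GLY-EV, all miRs), the ratio to miR-1a-3p overlaps, and the ratio to miR-133a-3p is higher in OXI-EVs.

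Ratios within the family compare members counted in the same library, free of the depth scale. Per 100 counts of miR-378a-3p, the other arm of its hairpin, miR-378a-5p, had 1.89, 1.74, 1.95 and 8.57 counts in OXI-EV replicates 1 to 4, against 1.67, 1.94, 1.69 and 1.98 in GLY-EV replicates 1 to 4. The arm ratio was thus within 1.67 to 1.98 in 7 of the 8 libraries. The mean was 3.54 ± 3.36 in OXI-EVs and 1.82 ± 0.162 in GLY-EVs (SD, n = 4 each, exact permutation test, p = 0.400, adjusted p = 0.514), and the OXI-EV mean was 1.86 without replicate 4.

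miR-378d had 5.05, 0.990, 1.19 and 0.513 counts per 100 of miR-378a-3p in OXI-EV replicates 1 to 4, against 0.732, 0.945, 0.891 and 0.482 in GLY-EV replicates 1 to 4. Again 7 libraries lay together and 1 apart, here OXI-EV replicate 1. The mean was 1.94 ± 2.10 in OXI-EVs and 0.763 ± 0.208 in GLY-EVs (SD, n = 4 each, exact permutation test, p = 0.229, adjusted p = 0.343), and the OXI-EV mean was 0.899 without that library.

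For the remaining members, the ratio to miR-378a-3p overlapped between the groups. miR-378b had 9.84, 7.68, 9.15 and 7.10 counts per 100 of miR-378a-3p in OXI-EV replicates 1 to 4, against 8.48, 10.4, 9.96 and 5.93 in GLY-EV replicates 1 to 4 (means 8.44 ± 1.27 in OXI-EVs and 8.69 ± 2.01 in GLY-EVs, SD, n = 4 each, exact permutation test, p = 0.857). miR-378c had 11.0, 9.24, 9.65 and 7.93 counts in OXI-EV replicates 1 to 4, against 7.85, 8.82, 8.54 and 6.07 in GLY-EV replicates 1 to 4 (means 9.45 ± 1.25 in OXI-EVs and 7.82 ± 1.24 in GLY-EVs, SD, n = 4 each, exact permutation test, p = 0.114, adjusted p = 0.206). Replicate 4 had the lowest ratio in both groups for both members. With so few libraries, these tests leave room for differences of the size of the spread.

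**Figure D4:**
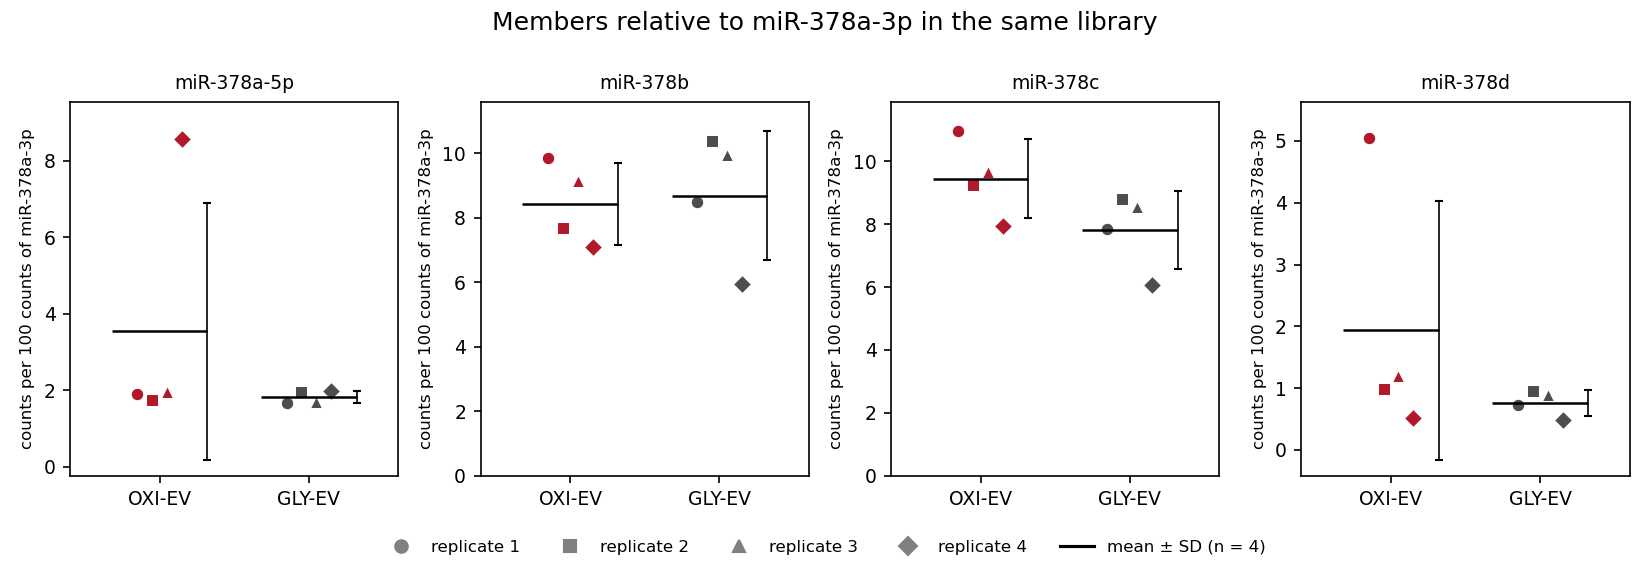
Counts of each other member per 100 counts of miR-378a-3p in the same library, OXI-EV left of GLY-EV; points are libraries, marked by replicate, and lines are the mean ± SD (n = 4 each). Apart from OXI-EV replicate 4 for miR-378a-5p (8.57) and OXI-EV replicate 1 for miR-378d (5.05), the libraries lie within 1.67 to 1.98 and 0.482 to 1.19.

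Beyond the family, the miRs whose log2 CPM followed miR-378a-3p most closely over the 8 libraries were miR-26a-5p (Pearson r = 0.991), miR-127-3p (0.990), miR-676-3p (0.989), miR-379-5p (0.988) and miR-486b-5p (0.985), a description over libraries that share the group difference and the depth. Likeness of this degree was common, with a median r of 0.843 over the 128 other abundant miRs and 51 of them over 0.9. miR-378c stood at rank 14 (r = 0.979), miR-378b at rank 36 (r = 0.954) and miR-378a-5p at rank 77 (r = 0.702). Of the 5 most alike miRs, miR-26a-5p (log2 fold change -2.68, edgeR adjusted p = 0.00489), miR-127-3p (log2 fold change -2.34, edgeR adjusted p = 0.0341) and miR-486b-5p (log2 fold change -2.52, edgeR adjusted p = 0.00177) were lower in OXI-EVs past the threshold, miR-127-3p in 4 of the 8 fits that left out a library.

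Other miRs described as regulators of metabolism, or lying in metabolic host genes, formed a list of 18. Of these, 17 were tested, 5 of them with a mean count of at least 100. Past the threshold, 1 was lower in OXI-EVs and 0 were higher. The list had a median log2 fold change of 0.06, against 0.48 over all miRs tested and -1.12 over the abundant ones. The share of miRs lower past the threshold was 1.78% over all miRs and 21.7% over the abundant ones, so that 1 call is near the background. The lower one was miR-181a-5p, which has been linked to mitochondrial turnover in mouse muscle, with 13.3 to 28.7 CPM in OXI-EV libraries and 71.7 to 192.9 CPM in GLY-EV libraries (log2 fold change -2.25, SE 0.50, edgeR adjusted p = 0.0430). The most abundant members of the list, miR-27b-3p (log2 fold change -1.83, edgeR adjusted p = 0.0949) and miR-23a-3p (log2 fold change -1.56, edgeR adjusted p = 0.285), did not pass. The call of miR-181a-5p was the only one of the list, and none was left without OXI-EV replicate 1, 2 or 3 or GLY-EV replicate 2 or 3. With TMM scaling 3 members of the list were lower, against 5.42% of all miRs and 51.2% of abundant ones.

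Of 7 other miRs described as pro-angiogenic, 4 of them with a mean count of at least 100, 0 of 7 tested passed the threshold with edgeR on the mapped-read scale, where 1.78% of all miRs and 21.7% of abundant ones were lower. At an unadjusted p under 0.05, 3 were lower, but the share of all miRs at that p is not given here. Past the adjusted threshold, 2 were lower with DESeq2 on mapped reads (59 of all 1569 miRs) or limma-voom (39 of 1569). With DESeq2's own size factors 3 were lower (113 of 1569), as with TMM scaling in edgeR (5.42% of all miRs, 51.2% of abundant ones). Whether the list exceeds these shares was not tested. The 7 had a median log2 fold change of -0.61, against 0.48 over all miRs tested and -1.12 over the abundant ones. The most abundant of the 7 were miR-126a-3p, the main endothelial miR (log2 fold change -1.93, edgeR adjusted p = 0.103), and miR-27b-3p. Of the muscle miRs, 6 of 8 with a mean count of at least 100, 5 of 8 tested were lower in OXI-EVs and 1 higher. Their median log2 fold change was -2.10, against -1.12 over the abundant miRs and 0.48 over all miRs tested. The median of -2.10 includes miR-208b-3p and miR-499-5p, which are not among the abundant miRs. The difference between the lists was not tested. The lower ones were miR-486a-5p, miR-486b-5p, miR-133b-3p, miR-133a-3p and miR-1a-3p, and the higher one was miR-206-3p, a miR of slow and regenerating fibres.

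Markers of several other cell types were also at lower levels in OXI-EVs. Smooth muscle miRs (2 of 2 tested) summed to 265 to 503 CPM in OXI-EV libraries and 782 to 2031 CPM in GLY-EV libraries, fibroblast miRs (3 of 3 tested) to 112 to 222 CPM in OXI-EV and 529 to 1232 CPM in GLY-EV, and endothelial miRs (2 of 2 tested) to 53.1 to 198 CPM in OXI-EV and 201 to 772 CPM in GLY-EV. For these 3 cell types the summed levels did not overlap. With edgeR 1 smooth muscle, 1 fibroblast and 0 endothelial miRs were lower past the threshold, and 2 of each type with TMM scaling. At an unadjusted p under 0.05 the 2 endothelial miRs, both arms of 1 hairpin, were lower. The share of all miRs at that p is not given here. Most of each sum was 1 miR, namely miR-143-3p, miR-199a-3p (counted with miR-199b-3p) and miR-126a-3p, which did not overlap between the groups. The other markers of these types, miR-145a-5p, miR-199a-5p, miR-214-3p and miR-126a-5p, did overlap. Lower levels of this kind were common among abundant miRs, of which 44.2% did not overlap with OXI-EVs lower and 21.7% (51.2% with TMM scaling) were lower past the threshold. Leukocyte miRs (5 of 5 tested) had 26.2 to 55.4 CPM in OXI-EV and 36.1 to 131.1 CPM in GLY-EV, brown adipocyte miRs (2 of 2) 3.91 to 38.4 CPM in OXI-EV and 9.45 to 57.0 CPM in GLY-EV, and erythroid miRs (2 of 3) 3.45 to 65.5 CPM in OXI-EV and 5.70 to 29.5 CPM in GLY-EV. The 2 brown adipocyte miRs went opposite ways, with log2 fold changes of 1.55 for miR-193b-3p and -1.97 for miR-365-3p, neither past the threshold. Of the leukocyte miRs, 4 had log2 fold changes below 0, and miR-142a-5p had 1.43. Both tested erythroid miRs were above 0, at 0.66 for miR-451a and 1.03 for miR-144-3p. No leukocyte or erythroid miR was past the threshold with edgeR on the mapped-read scale. Neural miRs (1 of 2 tested) reached 1.38 to 138 CPM in OXI-EV and 2.08 to 6.50 CPM in GLY-EV. Of these, miR-9-5p had 36.3 ± 67.7 CPM in OXI-EVs (SD, n = 4), a spread larger than its mean. Its log2 fold change was 3.30 (edgeR adjusted p = 0.271). The liver miR-122-5p had 1.15 to 7.71 CPM in OXI-EV and 1.95 to 4.44 CPM in GLY-EV (log2 fold change 0.61, edgeR adjusted p = 0.648). None of the listed markers was at 0 in all libraries, and 2 erythroid and 1 neural miR were at 0 in at least 1 library. The part of these cell types in the lower level of the family was not tested.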

How the data were processed

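The authors sequenced small RNA of 4 OXI-EV and 4 GLY-EV preparations, from 3 to 8 ng of RNA, with a kit that tags molecules. The deposited counts are raw whole numbers per miR and piRNA, made by the authors with cutadapt and STAR on GRCm38, per the submitters' processing notes; their versions, and the tool that counted, were not given in the sources used here. The deposited table also holds the authors' log2 fold changes, p-values and FDR for their own comparison, which were not used.

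The 1755 miRs were filtered to those with 10 counts or more in 4 libraries or more, and the 1569 left were tested by the quasi-likelihood method of edgeR 4.0.16 (R 4.3.3, with limma 3.58.1). Library size was the number of mapped reads and differences are OXI-EV minus GLY-EV; 72 piRNA rows were left out. P-values were adjusted by Benjamini-Hochberg over these 1569, and the threshold was 0.05. Standard errors are the log2 fold change over the square root of the test statistic. Exact permutation tests, two-sided, served for sums, shares and ratios. Correlations used log2 CPM with a prior count of 2. Alternatives were leaving out each library, other scales, filters and blocks, and other tools, namely limma-voom, the likelihood ratio test of edgeR, and DESeq2 1.42.0. Sums and ratios were calculated in Python 3.11.15 (numpy 2.4.6, pandas 2.3.3).

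The family as the subject, and so its members, the lists of miRs and the rule for naming miRs, were chosen with earlier results of these data known, although membership itself follows from the names alone. Named were the 5 members, the 5 abundant miRs most alike to miR-378a-3p, the muscle miRs used in ratios, and of each list the 2 most abundant members and those past the threshold.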

Additional observations from a re-analysis of the deposited data

Results flagged for a closer look

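In 28 sets of 4 libraries (the members' levels, shares and ratios in each group), the highest or lowest library was set against the other 3. For normally distributed values, chance alone marks about 1 in 20 such sets. Many of the sets share counts with one another, so the number marked cannot be held against that rate. In OXI-EVs, miR-378a-5p stood apart in replicate 4 (82.4 CPM, against 13.1 to 14.0 in the others) and miR-378d in replicate 1 (34.9 CPM, against 4.93 to 8.14), and so did their ratios to miR-378a-3p (8.57 and 5.05 counts per 100). Low in OXI-EVs was the family's share of miR counts left after removing miR-206-3p and miR-1a-3p in replicate 2 (3.03%, against 3.53 to 3.58%). High in OXI-EVs was miR-378a-3p per 100 counts of miR-1a-3p in replicate 4 (4.13, against 3.35 to 3.43). In GLY-EVs, miR-378a-3p per 100 counts of miR-133a-3p was low in replicate 4 (34.6, against 96.2 to 108), the library with the fewest reads per count.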

How the results depend on the processing

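miR-378a-3p was past the threshold, and lower in OXI-EVs, under every alternative scale, tool, filter and block run (log2 fold change -2.19 to -1.15) and in 7 of the 8 fits that left out a library, the exception being the fit without GLY-EV replicate 2. Leaving out a library in turn gave log2 fold changes of -1.79 to -1.36 for miR-378a-3p, -1.77 to -0.23 for miR-378a-5p, -1.75 to -1.53 for miR-378b, -1.45 to -1.22 for miR-378c and -1.34 to -0.06 for miR-378d. miR-378b lost its call with the number in the library names as a block (-1.49, adjusted p = 0.140 from edgeR). miR-378c gained one with TMM scaling (-1.86), total miR counts (-0.88), DESeq2's size factors in edgeR (-1.83), DESeq2 with mapped reads (-1.35) or its own size factors (-1.83), limma-voom (-1.32), at least 10 counts in all 8 libraries (-1.35, with 814 miRs tested) and TMM without OXI-EV replicate 1 (-2.03). miR-378a-5p gained one with TMM without OXI-EV replicate 4 (-2.10), and miR-378d turned to 0.16 with total miR counts.

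Over all miRs, 29 were past the threshold (28 lower and 1 higher in OXI-EVs). There were 86 with TMM scaling (85 lower), 236 with total miR counts (48 lower and 188 higher), 86 with DESeq2's size factors in edgeR (85 lower), 86 with DESeq2 on mapped reads (59 lower), 128 with its own size factors (113 lower), 54 with the likelihood ratio test (37 lower), 58 with at least 10 counts in all libraries (45 lower), 64 with TMM without OXI-EV replicate 1, 74 without OXI-EV replicate 4, and 15 to 37 without each library in turn on the mapped-read scale (15 without GLY-EV replicate 2, 17 without OXI-EV replicate 1). The metabolic list had 3 past the threshold with TMM scaling, total miR counts (2 lower and 1 higher in OXI-EVs, while the calls under the other settings named here were all lower), DESeq2's size factors, DESeq2 on mapped reads and TMM without OXI-EV replicate 1 or 4, 6 with DESeq2's own factors, 2 with limma-voom, the likelihood ratio test, the stricter filter and the replicate block, and 0 to 1 without each library. The pro-angiogenic list had 3 with TMM scaling, total miR counts (again 2 lower and 1 higher, all others lower), DESeq2's size factors, its own factors and TMM without OXI-EV replicate 4, 2 with DESeq2 on mapped reads, limma-voom, the likelihood ratio test, the stricter filter, the replicate block and TMM without OXI-EV replicate 1, 1 with the block of library-name numbers, and 0 to 1 without each library. The cause of these shifts was not tested.

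Over the 129 abundant miRs, the deviations of libraries of the same replicate number had r = 0.173, -0.304, 0.171 and 0.098 for replicates 1 to 4. Numbers in the library names pair the same libraries except those of replicate 2, with r = 0.173, 0.171 and 0.098 for the 3 shared numbers. Not every one of these values was over 0.1, and 2 of the 4 OXI-EV libraries were most alike to the GLY-EV library of their own number. Deviations within groups of 4 libraries cannot decide whether libraries came from the same mouse, so no pairing was taken from them or excluded by them. With the replicate block the log2 fold changes were -1.60 for miR-378a-3p (adjusted p = 5.12e-04 from edgeR), -1.02 for miR-378a-5p, -1.62 for miR-378b (0.0279), -1.32 for miR-378c (0.0876) and -0.80 for miR-378d, with no call of a member changed. For sums and shares the sign-flip test over 4 pairs cannot go below 0.125, nor the test of 3 libraries against 4 below 0.0571. Without each library in turn, the difference in the family's summed CPM was -2216 to -1470, and that in its share of miR counts -1.32 to -1.04 percentage points. Depth limits miR-378d, with 24 to 152 counts in OXI-EV libraries.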

Other observations

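miR-378b and miR-378c, which share a run of 19 bases, stood in a different proportion in the groups. Per 100 counts of miR-378c there were 83.1 to 94.8 counts of miR-378b in OXI-EV libraries and 97.8 to 118 in GLY-EV libraries, with no overlap. The mean was 89.3 ± 4.78 in OXI-EVs and 110.03 ± 9.28 in GLY-EVs (SD, n = 4 each). This ratio was looked at after the values of its members had been seen, so it is given with no test. How the counting divided reads between these members was not tested.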
